A study of Rattus norvegicus with 16 samples.

Results

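Immediate-early genes are transcribed within minutes of a stimulus without the need for new protein. Their transcripts were measured here in the rat ventral prostate, in offspring of dams on a control or a low protein diet. The 10 genes followed were Fos, Fosb, Jun, Junb, Egr1, Egr2, Ier2, Atf3, Nr4a1 and Dusp1. These genes were chosen by name, with earlier results of these data known, and all 10 were listed in both deposited count tables. They stand among 28688 genes in the table for postnatal day (PND) 21 and 24218 in that for PND540, with 19709 gene names in both. Control (CTR) dams had a normal diet with 17% protein, and GLLP dams a diet with 6% protein through gestation and lactation. Whole ventral prostates of the offspring were taken at PND21 (4 CTR and 3 GLLP libraries) or at PND540 (5 CTR and 4 GLLP libraries), 16 libraries in all. The labels give no rat strain, state no treatment of the offspring themselves, and do not say which offspring shared a litter. The p-values therefore measure spread among the sampled glands, which may be partly technical.

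The products of these genes act in a few groups. Fos and Fosb are basic leucine zipper proteins that bind DNA as dimers with Jun proteins such as Jun and Junb, together called AP-1, and Atf3 is a stress-induced zipper protein of the ATF/CREB family. Egr1 and Egr2 are zinc finger factors and Nr4a1 is an orphan nuclear receptor. The last pair are not classical DNA-binding factors: Ier2 is a small nuclear protein, and Dusp1 is a phosphatase that switches off mitogen-activated protein (MAP) kinases, the enzymes upstream of many of these genes. Serum response factor acts on such genes through a DNA element named the CArG box, and the factor CREB through the cAMP response element (CRE), TGACGTCA. In dissected tissue the transcripts are known to respond to handling and ischaemia as well as to signals in the living gland.

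Promoter sequence was at hand for 7 of the 10 genes, from RefSeq on the assembly GRCr8. Fos, Jun and Atf3 have no entry in that table. The 250 bases before the annotated start are shown for Junb and Egr2, each with a single control library of PND540 far above the rest, and for Ier2 and Dusp1, which hold a full CRE. They are written 5′ to 3′ in the direction of transcription, and capitals mark the CRE or its core TGACG on either strand, the CArG box and the TATA box (TATAAA).
Junb, chr19:40080876-40081125, plus strand: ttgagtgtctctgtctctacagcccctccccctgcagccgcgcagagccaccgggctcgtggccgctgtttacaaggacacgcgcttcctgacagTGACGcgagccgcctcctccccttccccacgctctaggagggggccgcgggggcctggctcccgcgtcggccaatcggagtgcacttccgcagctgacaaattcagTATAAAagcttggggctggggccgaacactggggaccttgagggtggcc
Egr2, chr20:21054442-21054691, minus strand: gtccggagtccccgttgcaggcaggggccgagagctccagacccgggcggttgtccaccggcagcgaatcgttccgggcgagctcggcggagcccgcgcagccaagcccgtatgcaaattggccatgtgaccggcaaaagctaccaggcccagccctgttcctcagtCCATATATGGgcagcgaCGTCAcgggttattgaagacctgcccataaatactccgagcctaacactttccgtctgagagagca
Ier2, chr19:40399123-40399372, plus strand: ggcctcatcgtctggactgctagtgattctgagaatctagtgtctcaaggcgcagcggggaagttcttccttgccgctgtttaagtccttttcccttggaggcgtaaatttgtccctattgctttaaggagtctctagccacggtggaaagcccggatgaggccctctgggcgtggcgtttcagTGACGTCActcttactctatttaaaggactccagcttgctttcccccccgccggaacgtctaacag
Dusp1, chr10:17184603-17184852, plus strand: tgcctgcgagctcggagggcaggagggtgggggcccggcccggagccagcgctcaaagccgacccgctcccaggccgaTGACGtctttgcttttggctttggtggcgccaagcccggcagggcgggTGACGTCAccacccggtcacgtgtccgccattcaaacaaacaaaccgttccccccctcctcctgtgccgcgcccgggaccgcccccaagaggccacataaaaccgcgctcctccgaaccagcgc

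A full CRE was found in 2 of the 7 promoters, those of Ier2 (bases -66 to -59 from the start) and Dusp1 (-124 to -117), and in 1.59% of the 33469 promoters in the table. Its core, which lies within every full CRE as well, was found in 6 of 7, all but Fosb, against 18.2% of all promoters. The CArG box was found in 2 of 7, in Egr2 at -83 to -74 and at 2 places in Egr1, against 1.5%. TATAAA on the coding strand was found in Junb only, 1 of 7 against 8.06%, and the AP-1 site TGACTCA on either strand in 0 of 7 against 4.05%. The share of G and C was 66% in Junb, 62% in Egr2, 53.2% in Ier2 and 68.8% in Dusp1, and ran from 43.6% (Fosb) to 74.8% (Nr4a1) over the 7 promoters, against a median of 51.2% over all promoters. A match describes the letters in this window and shows neither a bound factor nor a cause of the values that follow.

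Totals lay between 28748604 and 39161666 counts per library. Levels are given as CPM, counts brought to a common library size by TMM scaling over the 16 libraries and the gene names in both tables. On that scale a count of 0 allows up to 3 counts, or 0.0778 to 0.126 CPM. These limits cover counting error only. CTR replicate 5 of PND540 stood apart: for 70.7% of all tested genes it held the highest or the lowest of the 9 PND540 values. CTR replicate 1 of PND21 had 0.282% mitochondrial counts against 3.66% to 5.02% in the other PND21 libraries. None of the 7 luminal markers of the gland's epithelium was at 0 in any library, and their sums were 2213 to 5818 CPM. One of them, Pbsn, was at 0.0391 CPM in CTR replicate 5 of PND540, under the level of 3 counts there (0.117 CPM). The sum of 5 skeletal muscle markers in both tables was 9.07 to 15.7 CPM in CTR and 289 to 558 CPM in GLLP at PND21. The deposited tables list different gene annotations, and a comparison of the ages carries whatever the 2 ways of counting add to it. Hspa1a, a heat shock gene, had 0 counts in all 7 libraries of PND21 and 14.9 to 37.3 CPM at PND540. Mitochondrial counts were 0% in every PND540 library. Whether age or the counting lies behind these values was not tested. In whole glands, fewer cells that express a gene cannot be told apart from less RNA of that gene per cell.

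**Figure D1:**
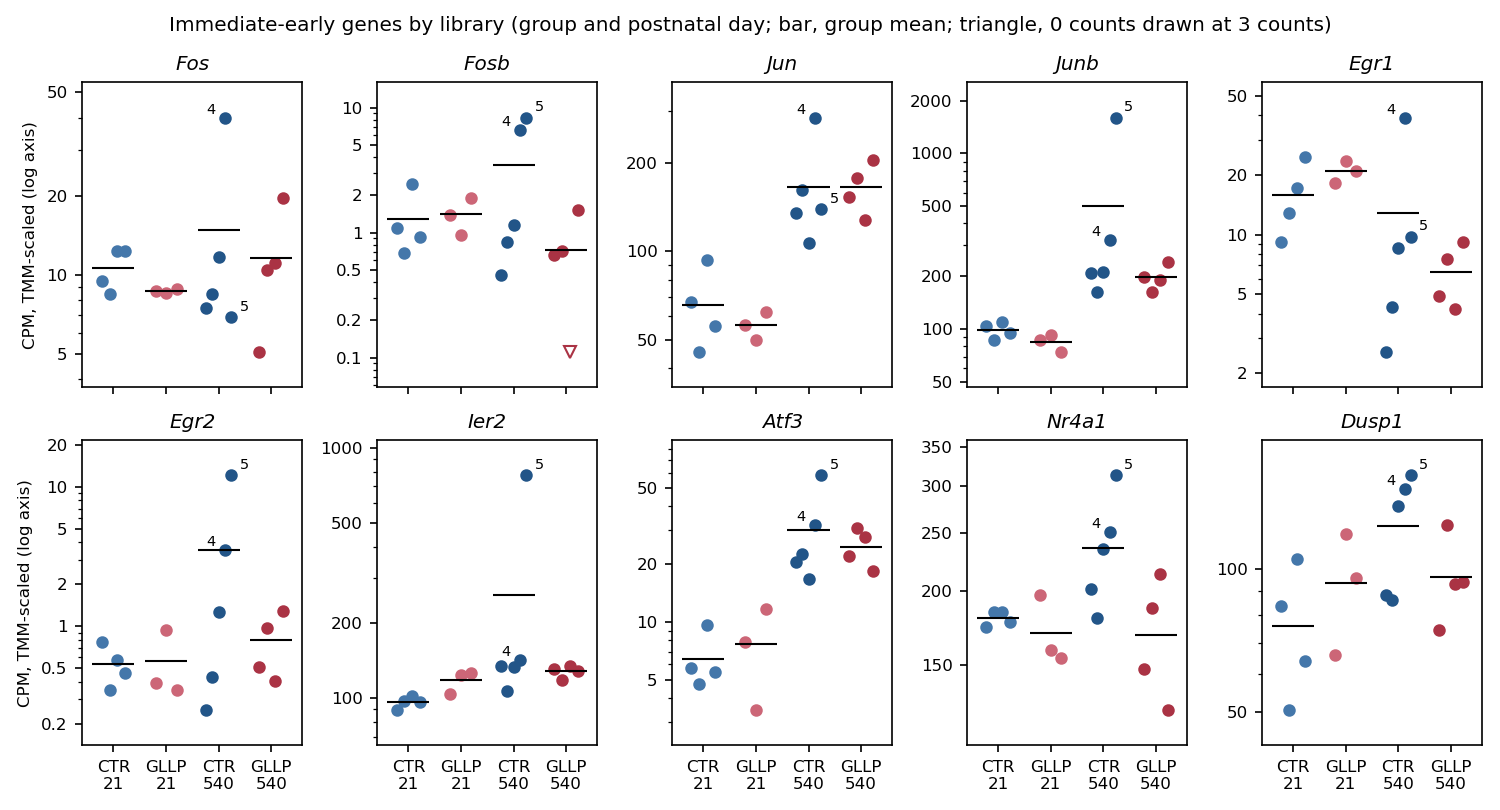
TMM-scaled CPM (log axis) of each gene in each library, by diet group and postnatal day, with the group mean as a bar and a count of 0 drawn as a triangle at the level of 3 counts. The numbers 4 and 5 mark those control replicates of PND540: replicate 4 is the highest library for Fos (40.0) and Egr1 (38.8), replicate 5 for Junb (1598), Ier2 (775) and Egr2 (12.1).

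At PND21 none of the 10 genes differed between the diets with edgeR's quasi-likelihood test and Benjamini-Hochberg adjustment over all 14915 genes tested, a test that called 1.11% of all genes. There were 6 positive and 4 negative fold changes with a median log2 value of 0.11, and over all genes 49.5% were positive. Ier2 was the member with the smallest p. It stood at 89.5, 97.1, 102 and 96.4 CPM in CTR replicates 1 to 4, and the GLLP replicates 2 to 4 had 104, 124 and 125 CPM. Every GLLP library lay above every CTR library, which held for Ier2 alone among the members and for 17.1% of all genes in either direction. The log2 fold change was 0.29 (SE 0.094, unadjusted p = 0.0119, edgeR adjusted p = 0.153), 1 of the 10 members having an unadjusted p under 0.05 against 19.3% of all genes. Ier2 passed the threshold without GLLP replicate 2 (log2 fold change 0.38, edgeR adjusted p = 0.029), with scaling by library size alone (0.44, adjusted p = 0.0486, where the median of all genes moves to 0.14) and with limma voom and sample weights (0.34, adjusted p = 0.0131). In those 3 fits 9.96%, 4.36% and 23.2% of all genes passed. Skeletal muscle markers separate the same libraries, as do the 5 macrophage markers, with sums of 45.04 to 68.5 CPM in CTR and 69.8 to 83.1 CPM in GLLP. Their part in the Ier2 difference was not tested.

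The AP-1 genes overlapped between the diets at PND21. Junb was at 105, 86.9, 111 and 94.8 CPM in CTR and 86.9, 93.0 and 74.2 CPM in GLLP. Its lowest value was in GLLP replicate 4, and its log2 fold change was -0.23 (SE 0.11, edgeR adjusted p = 0.301). Fos stood at 9.47, 8.44, 12.3 and 12.4 CPM in CTR and 8.67, 8.53 and 8.84 CPM in GLLP. The 3 GLLP values lay close together between the lowest pair of CTR values (log2 fold change -0.29, SE 0.17, edgeR adjusted p = 0.364). Jun was at 67.0, 45.3, 93.5 and 55.7 CPM in CTR and 55.8, 49.9 and 62.3 CPM in GLLP, all GLLP libraries being inside the CTR range. Fosb was at 1.09, 0.693, 2.48 and 0.931 CPM in CTR and 1.40, 0.960 and 1.91 CPM in GLLP, from 22 to 74 counts a library.

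The other members overlapped between the diets too. Egr1 stood at 9.18, 12.9, 17.1 and 24.5 CPM in CTR against 18.2, 23.6 and 20.9 CPM in GLLP. The highest library was a CTR library, and the log2 fold change of 0.40 (SE 0.29, edgeR adjusted p = 0.46) was the largest of the members at this age. Egr2 was low, with 11 to 36 counts or 0.347 to 0.934 CPM in the 7 libraries, above the level of 3 counts in each. Atf3 was at 5.75, 4.76, 9.61 and 5.45 CPM in CTR and 7.88, 3.48 and 11.7 CPM in GLLP, so that GLLP held both the lowest and the highest library. Nr4a1 was the steadiest in CTR, at 174 to 185 CPM, and stood at 197, 159 and 154 CPM in GLLP. Dusp1 ranged from 50.5 to 105 CPM in CTR and from 65.8 to 119 CPM in GLLP, with a log2 fold change of 0.31 (SE 0.27, edgeR adjusted p = 0.544). CTR replicate 2 was the lowest PND21 library for 5 members (Fos, Fosb, Jun, Egr2 and Dusp1) and for 8.52% of all genes, and CTR replicate 3 the highest for Fosb, Jun and Junb.

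At PND540 again none of the 10 genes differed between the diets with edgeR, where 0% of 14767 genes passed, 0 members and 0.833% of all genes had an unadjusted p under 0.05, and DESeq2 called 0 members. DESeq2 gave no adjusted p for Junb and Ier2 here, so its count covers the other members only. All 10 fold changes were negative, with a median log2 value of -0.74 against 50% positive over all genes. That of Jun was -0.0019 and became positive with 7 other settings, among them RLE size factors (0.0035) and library size alone (0.0062). All 10 genes overlapped between the diets (0.393% of all genes did not). The adjusted p was 0.914 for 9 members and 0.999 for Jun. The size of these values depended on 2 control libraries. Without CTR replicate 5 the median was -0.30 and 9 values were negative, and without CTR replicate 4 it was -0.37 and 7 were negative.

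Fosb had the largest fitted difference. It was at 0.461, 0.838, 1.16, 6.64 and 8.33 CPM in CTR replicates 1 to 5 and at 0.660, 0.715, 0 and 1.52 CPM in GLLP replicates 1 to 4. CTR replicates 4 and 5 were both above all GLLP libraries, the other CTR libraries lay among them, and GLLP replicate 3 had 0 counts, which allows up to 0.111 CPM. The log2 fold change was -2.28 (SE 1.12, unadjusted p = 0.0689, edgeR adjusted p = 0.914). Egr2 showed the same order, with 0.251, 0.436, 1.26, 3.54 and 12.1 CPM in CTR and 0.513, 0.966, 0.406 and 1.29 CPM in GLLP. Again CTR replicates 4 and 5 alone exceeded GLLP, and the log2 fold change was -2.18 (SE 1.05, edgeR adjusted p = 0.914).

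Junb and Ier2 were set by a single control library. Junb was at 208, 164, 211, 322 and 1598 CPM in CTR against 199, 163, 192 and 243 CPM in GLLP. Replicate 5 was 4.97-fold above the next library, and the log2 fold change of -1.36 (SE 0.69, edgeR adjusted p = 0.914) became -0.18 without it. Ier2 was at 134, 107, 133, 142 and 775 CPM in CTR against 129.9, 118, 134 and 128 CPM in GLLP. Its log2 fold change of -1.05 (SE 0.61, edgeR adjusted p = 0.914) became -0.0075 without replicate 5, which was 5.46-fold above the next library.

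Fos, Jun and Egr1 followed the other control library. Fos was at 7.50, 8.45, 11.7, 40.0 and 6.88 CPM in CTR against 5.06, 10.4, 11.2 and 19.7 CPM in GLLP. Egr1 stood at 2.56, 4.32, 8.58, 38.8 and 9.77 CPM in CTR against 4.91, 7.55, 4.21 and 9.18 CPM in GLLP. Replicate 4 was the highest library for both, while replicate 5 came next for Egr1 and was among the lowest for Fos. The log2 fold changes were -0.36 for Fos (SE 0.59) and -0.99 for Egr1 (SE 0.71), and without replicate 4 they were 0.41 and 0.032. Jun was at 135, 161, 107, 285 and 139 CPM in CTR against 153, 177, 128 and 204 CPM in GLLP, with 4 of the 5 CTR libraries inside or below the GLLP range.

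On the TMM scale Atf3, Nr4a1 and Dusp1 were also highest in CTR replicate 5 at PND540. For Nr4a1 and Dusp1 this depended on the scaling. CTR replicate 4 had more raw counts than replicate 5 for Nr4a1 (8602 against 8008) and Dusp1 (5036 against 4034). Its total was smaller, 32832058 against 37587255 counts. Atf3 was at 20.5, 22.5, 16.8, 31.9 and 58.0 CPM in CTR against 22.0, 30.7, 27.5 and 18.4 CPM in GLLP. Its log2 fold change of -0.30 (SE 0.38, edgeR adjusted p = 0.914) turned to 0.11 without CTR replicate 5. Nr4a1 was at 201, 180.4, 235, 252 and 313 CPM in CTR against 148, 187, 213 and 126 CPM in GLLP, with 3 CTR libraries above all of GLLP (log2 fold change -0.50, SE 0.24, unadjusted p = 0.0659, edgeR adjusted p = 0.914). Dusp1 was at 88.1, 86.0, 136, 147 and 158 CPM in CTR against 74.4, 124, 93.0 and 94.1 CPM in GLLP, again with 3 CTR libraries on top (log2 fold change -0.36, SE 0.25, edgeR adjusted p = 0.914).

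**Figure D2:**
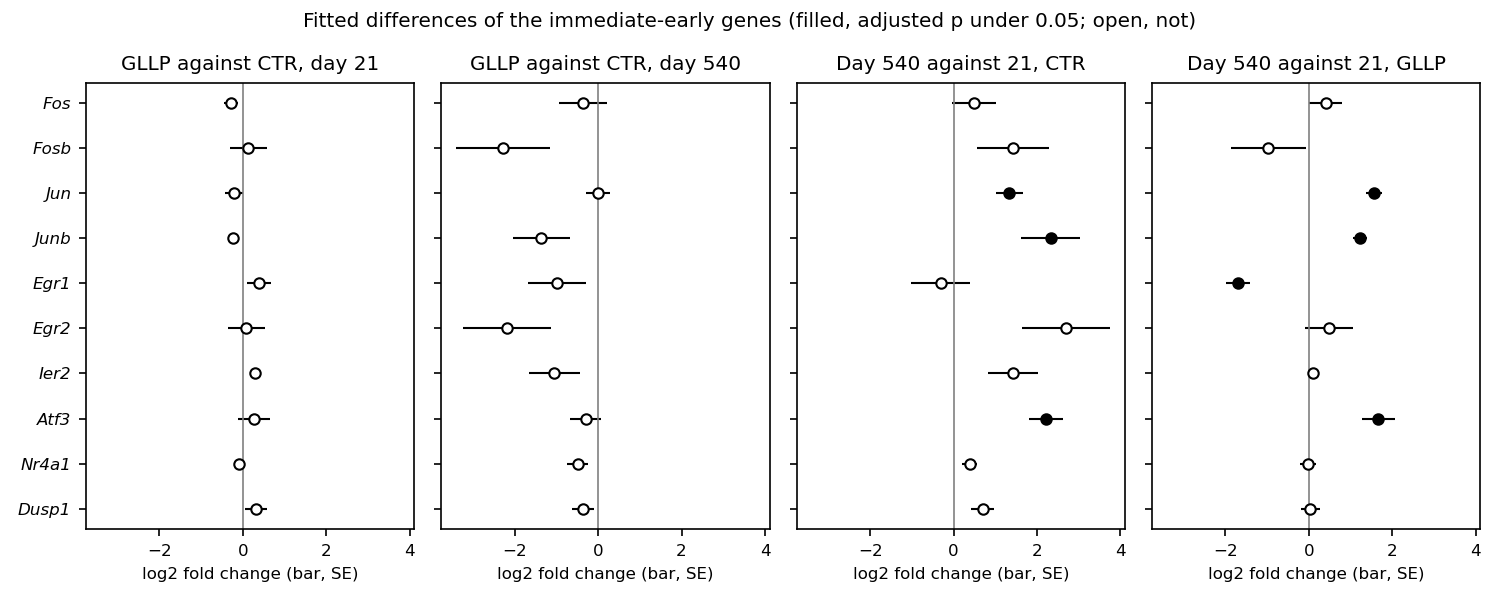
Fitted log2 fold change with its standard error for each gene in the 4 comparisons (edgeR). Filled points passed an adjusted p of 0.05: none for the diet at either age, Jun, Junb and Atf3 between the ages in CTR, and Jun, Junb, Atf3 and Egr1 in GLLP.

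Between PND21 and PND540, Jun, Junb and Atf3 rose in both diet groups, in edgeR fits made separately for each group. In CTR these 3 were the members called, all higher (30%), where 30.5% of 13510 genes were called, 17.3% as higher and 13.2% as lower. In GLLP the same 3 were called higher and Egr1 lower, 40% of the members, where 36.2% of 13694 genes were called, 19.1% as higher and 17.1% as lower. The share of members called thus lay near that of all genes in both groups. An unadjusted p under 0.05 was found for 6 members in CTR and 4 in GLLP, against 41% and 45.4% of all genes, and positive values for 9 and 7 members, against 53.9% and 51.3%. With library size alone the GLLP calls over all genes turned from 2611 higher and 2341 lower to 1965 higher and 2916 lower, the median of all genes moved by more than 0.1 to -0.16, and the 4 members kept their calls and directions.

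In CTR the PND21 level of Jun was 65.3 ± 20.7 CPM (SD, n = 4) and its PND540 level 165 ± 69.5 CPM (SD, n = 5), with a log2 fold change of 1.34 (SE 0.32, 2.53-fold, edgeR adjusted p = 0.0113). In GLLP the levels were 56.0 ± 6.20 (SD, n = 3) and 166 ± 32.5 CPM (SD, n = 4), a log2 fold change of 1.55 (SE 0.19, 2.93-fold, edgeR adjusted p = 0.000353). Every PND540 library was above every PND21 library of its diet. Jun, Junb, Ier2 and Atf3 were the members without overlap in CTR and Jun, Junb, Atf3 and Egr1 those in GLLP, where 37.7% (18.8% higher and 18.9% lower) and 44.7% (22.5% higher and 22.2% lower) of all genes had none. Leaving out any library kept the call, with values from 1.02 to 1.56 in CTR and from 1.45 to 1.66 in GLLP.

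Atf3 rose in CTR from 6.39 ± 2.18 to 29.9 ± 16.7 CPM, a log2 fold change of 2.23 (SE 0.41, 4.68-fold, edgeR adjusted p = 0.00263). In GLLP it rose from 7.68 ± 4.10 to 24.6 ± 5.51 CPM, a log2 fold change of 1.67 (SE 0.39, 3.17-fold, edgeR adjusted p = 0.00989). The ages did not overlap in either diet, and Atf3 kept both calls without any of the libraries and under all other settings tried.

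Junb rose in GLLP from 84.7 ± 9.58 to 199 ± 33.0 CPM, a log2 fold change of 1.23 (SE 0.17, 2.34-fold, edgeR adjusted p = 0.000683) that was called in every alternative run. In CTR it rose from 99.3 ± 10.5 to 500.5 ± 616 CPM, a log2 fold change of 2.33 (SE 0.70, 5.04-fold, edgeR adjusted p = 0.0307). This larger value came with CTR replicate 5: without that library the log2 fold change was 1.19 with an adjusted p of 0.000725 by edgeR. With replicate 5 kept, the call was lost when CTR replicate 1, 2, 3 or 4 of PND21 was left out (log2 fold change 2.27 to 2.38, edgeR adjusted p = 0.0723 to 0.0847), and DESeq2 gave no adjusted p for Junb in CTR. All Junb values of PND540, 163 to 1598 CPM, lay above all values of PND21, 74.2 to 111 CPM.

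Egr1 was the member that fell. In GLLP it went from 20.9 ± 2.67 to 6.46 ± 2.31 CPM, 3.25-fold lower (log2 fold change -1.70, SE 0.30, edgeR adjusted p = 0.00221), with no overlap between the ages, and the call held in every alternative run. In CTR its log2 fold change was -0.31 (SE 0.70, edgeR adjusted p = 0.767), and the 5 old libraries ran from 2.56 to 38.8 CPM around the 4 young ones at 9.18 to 24.5 CPM. Without CTR replicate 4 of PND540 it was -1.37 with an edgeR adjusted p of 0.0586.

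The other members did not pass between the ages with edgeR. Ier2 did not overlap in CTR, where all 5 old libraries lay above the 4 young ones (log2 fold change 1.42, SE 0.60, edgeR adjusted p = 0.104). Without replicate 5 its value was smaller, 0.42, and passed (edgeR adjusted p = 0.00677). DESeq2 gave no adjusted p for Ier2 in CTR. In GLLP Ier2 had a log2 fold change of 0.11 (SE 0.13, edgeR adjusted p = 0.552), and it was -0.072 with library size alone. Egr2 had the largest fitted value in CTR, 2.70 (SE 1.06, edgeR adjusted p = 0.0819), and passed with DESeq2 (adjusted p = 0.0107) and without CTR replicate 1 of PND540 (edgeR adjusted p = 0.0434); in GLLP it was 0.48 (SE 0.59). Fosb was at 1.43 (SE 0.87) in CTR and -0.97 (SE 0.89) in GLLP. Fos was at 0.49 (SE 0.53) and 0.41 (SE 0.40), and turned to -0.33 in CTR without replicate 4 of PND540. Nr4a1 was at 0.39 (SE 0.18, edgeR adjusted p = 0.131) in CTR and -0.025 (SE 0.20) in GLLP, and Dusp1 at 0.70 (SE 0.28, edgeR adjusted p = 0.0823) and 0.031 (SE 0.23).

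Other cells of the gland moved with age as well. The sum of 5 smooth muscle markers was 3286 to 4108 CPM at PND21 and 527 to 1596 CPM at PND540, and that of 4 endothelial markers 81.3 to 103 CPM at PND21 and 19.3 to 57.2 CPM at PND540. The 7 luminal markers summed to 2213 to 2670 CPM at PND21 and 2896 to 5818 CPM at PND540. The 6 T and B cell markers summed to 1.63 to 3.13 CPM at PND21 and 3.47 to 13.4 CPM at PND540. Neutrophil markers went from 0.482 to 2.08 CPM up to 2.28 to 15.7 CPM in CTR, and from 1.33 to 3.73 CPM up to 5.17 to 12.0 CPM in GLLP. In GLLP alone the ages were also separate for adipocyte markers (17.7 to 74.3 CPM at PND21, 103 to 279 CPM at PND540), basal markers (714 to 1440.3 and 300.4 to 565 CPM) and skeletal muscle markers (289 to 558 and 2.33 to 7.65 CPM). The part of these shifts in the age differences was not tested.

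The diet effects at the 2 ages were compared directly by an interaction term over all 16 libraries. Of the 10 members 0 passed with edgeR, against 0.0917% of 14178 genes, DESeq2 called 0, and 0 had an unadjusted p under 0.05, against 5.17% of all genes. DESeq2 gave no adjusted p for Ier2 in the interaction. The term was negative for 9 members, with 48% of all genes positive, Jun being the exception at 0.23 (SE 0.40), and the smallest adjusted p was 0.738. Fosb had the largest value, -2.39 (SE 1.34), followed by Egr2 at -2.21 (SE 1.30). Hence the Egr1 fall that passed in GLLP and not in CTR was not shown to differ between the diets: its term was -1.38 (SE 0.89, edgeR adjusted p = 0.738).

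On the TMM scale, CTR replicates 4 and 5 of PND540 were both above the other 7 PND540 libraries for 8 of the 10 members. These were all but Fos and Jun, and the same held for 6.62% of all tested genes. How far each stood above them differed by gene. For Egr1 and Dusp1 the result depended on that scaling. Egr1 had 250 of 37587255 counts in CTR replicate 5 against 271 of 30603986 in GLLP replicate 4. Dusp1 had 4034 counts in CTR replicate 5 against 3465 of 29753730 in GLLP replicate 2, a larger share of its library. On the TMM scale replicate 5 was highest at PND540 for Fosb, Junb, Egr2, Ier2, Atf3, Nr4a1 and Dusp1. It held the highest value for these 7 of the 10 genes and for 34.3% of all tested genes. Relative to the median of the other 8 libraries it was 16.4-fold higher for Egr2, 10.7-fold for Fosb, 7.86-fold for Junb, 5.90-fold for Ier2 and 2.61-fold for Atf3, and 1.57-fold to 1.69-fold for Egr1, Nr4a1 and Dusp1. It was not raised for Jun (0.886-fold) or Fos (0.638-fold). Junb, Egr2 and Ier2 stood at least 2-fold above the next library there, as did 12% of all tested genes. Replicate 4 was the highest library for Fos, Jun and Egr1, and for 10.3% of all genes. It exceeded the median of the other 8 libraries 8.55-fold for Fosb, 6.23-fold for Egr1, 4.79-fold for Egr2, 4.24-fold for Fos and 1.95-fold for Jun. For Junb, Dusp1, Atf3 and Nr4a1 it was at 1.58-fold, 1.57-fold, 1.44-fold and 1.30-fold, and for Ier2 at 1.08-fold. Fos and Egr1 stood at least 2-fold above the next library there, as did 0.352% of all genes. Fosb and Egr2 were the members at least 4-fold above that median in both libraries.

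**Figure D3:**
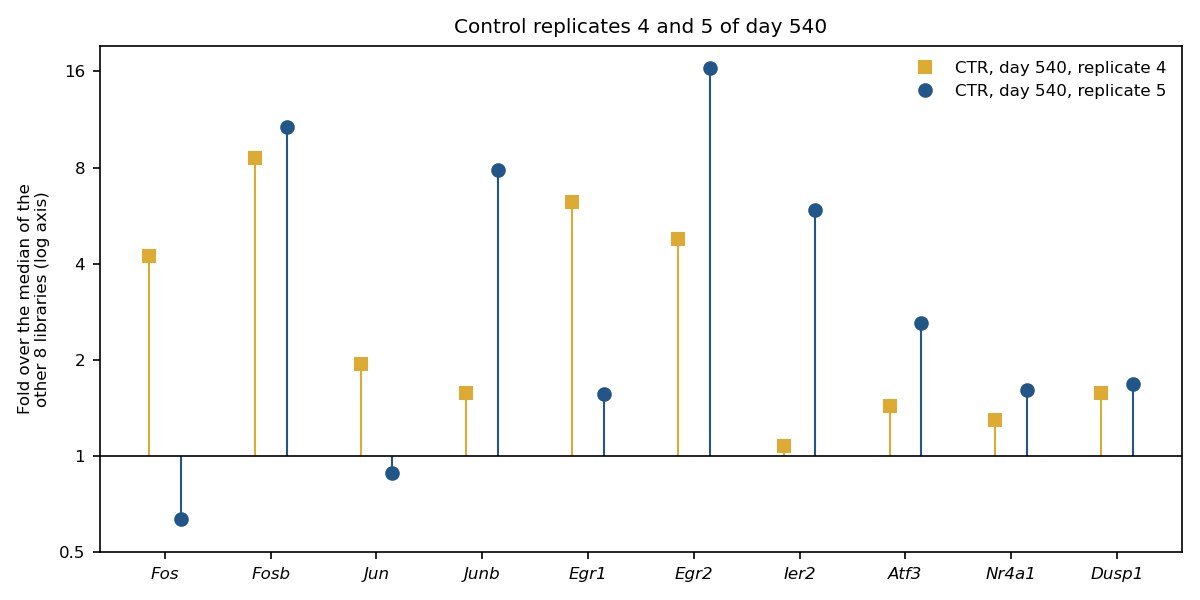
Level of each gene in CTR replicates 4 (squares) and 5 (circles) of PND540 as fold over the median of the other 8 PND540 libraries (log axis, a line at 1). On the TMM scale, replicate 4 leads for Fos, Jun and Egr1 and replicate 5 for the other 7. Fos and Jun fall below 1 in replicate 5.

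These libraries also differed in cell markers. Of the 7 luminal markers none was at 0 in any library, but one that responds to androgen was low in both. Pbsn, the gene of the secretory protein probasin, stood at 1.08 CPM in replicate 4 and 0.0391 CPM in replicate 5, against 9.08 to 40.8 CPM in the other CTR libraries and 0.739 to 28.4 CPM in GLLP. The luminal sum was nonetheless highest in replicate 5 (5818 CPM) and 4087 CPM in replicate 4, with 2896 to 4136 CPM in the other PND540 libraries. The 5 basal markers summed to 1391 CPM in replicate 5 and 249 to 565 CPM in the other PND540 libraries, and the 5 macrophage markers to 149 CPM in replicate 4, 125 CPM in replicate 5 and 46.1 to 112 CPM elsewhere. In replicate 5 Aif1 made up 68.0 CPM of that sum, while Adgre1 was at its lowest of the PND540 libraries (2.81 CPM). In replicate 4 Csf1r (72.2 CPM), Cd68 (36.9 CPM) and Adgre1 (13.0 CPM) were at their highest. Cd163 was not raised in either, at 2.78 CPM in replicate 4 and 2.58 CPM in replicate 5. Elsewhere at PND540 Cd163 was at 0.838 to 20.2 CPM. The 6 heat shock genes in both tables had their lowest PND540 sum in replicate 4 (1627 CPM) and stood at 2656 CPM in replicate 5, within the 2436 to 3876 CPM of the others. Most of that sum was Hspa5, a chaperone of the endoplasmic reticulum, with 981 CPM in replicate 4 and 1784 CPM in replicate 5. Of the others Hspa1a, which is induced by stress, was at 37.3 CPM in replicate 5 against 14.9 to 26.9 CPM elsewhere at PND540, Hspb1 was at 231 CPM in replicate 5 against 38.2 to 116 CPM elsewhere at PND540, and Dnajb1 at 190.0 against 86.2 to 140.3 CPM. The remaining genes of the list, Hspa8 and Hsph1, were not raised. Hspa8 was at 330 CPM in replicate 5 against 326 to 1008 CPM elsewhere at PND540, and Hsph1 at 84.1 against 81.4 to 200.5 CPM. Replicate 4 had the lowest value of both. The part of cell makeup and of handling in the high values was not tested.

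Junb and Ier2 lie near each other on chromosome 19 in GRCr8. Of the genes between them 15 were tested at PND540, and their levels in replicate 5 were 0.838-fold to 5.84-fold the median of the other 8 libraries, with a median of 2.50, on the scale of the PND540 libraries alone. On that scale Junb was at 8.14-fold, Ier2 at 6.15-fold and the median of all genes at 0.967-fold. Both members were above all 15 genes between them.

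The members moved together between libraries at PND540 and less so at PND21. Over the 45 pairs of members, Pearson's r of log2 CPM across the 9 libraries of PND540 was positive for 40 pairs with a median of 0.61, and 13 pairs were above 0.7. Over all pairs of tested genes the median was 0.002 and 50.1% were positive. At PND21, across 7 libraries, 31 pairs were positive with a median of 0.15 (all genes: median -0.001, 49.9% positive). These values are descriptions over few points that share library, depth and scaling. Without CTR replicate 3 of PND21 that median was -0.00027, with 22 positive pairs. At PND540 without CTR replicates 4 and 5 together, an alternative chosen after their values were seen, 25 pairs were positive and the median was 0.13.

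**Figure D4:**
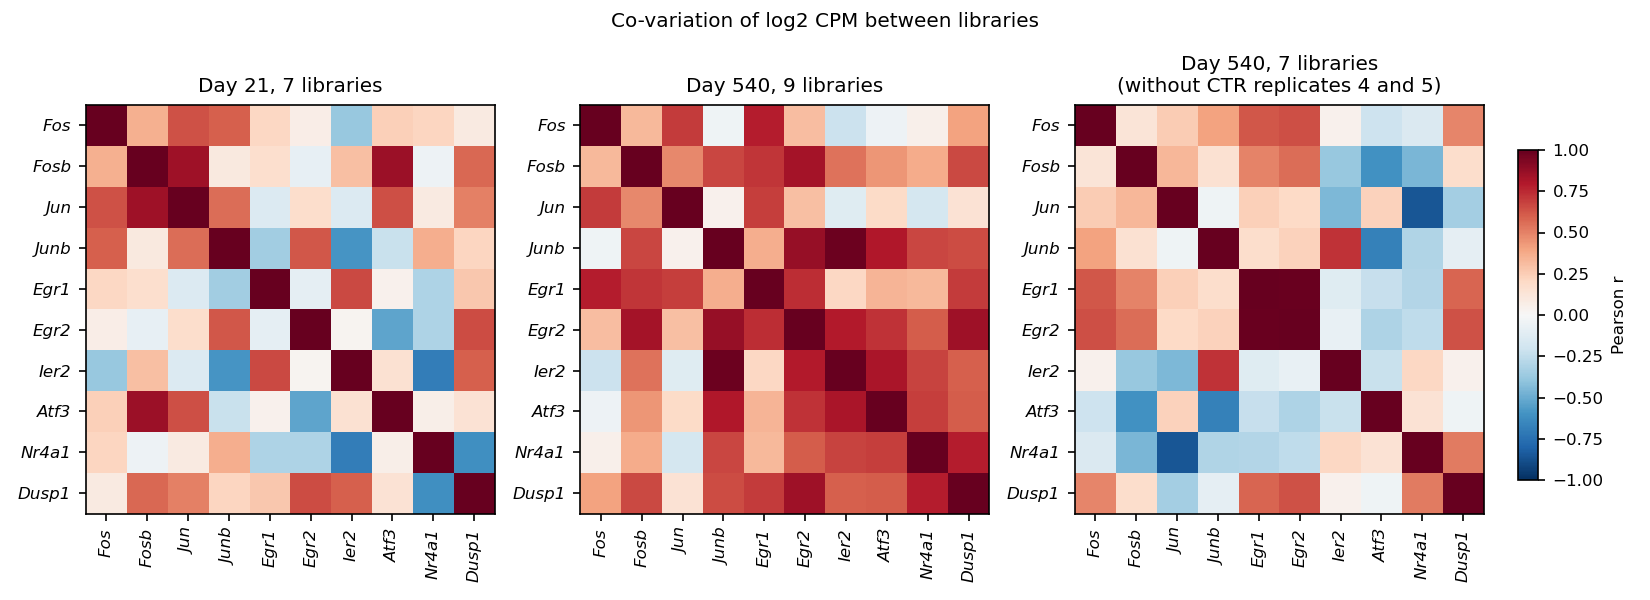
Pearson's r of log2 CPM between libraries for every pair of the 10 genes at PND21 (7 libraries), at PND540 (9 libraries) and at PND540 without CTR replicates 4 and 5 (7 libraries). The middle map is mostly red (40 of 45 pairs positive), and without those libraries 25 remain positive, among them Egr1 with Egr2 (0.99) and Junb with Ier2 (0.72).

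Some pairs kept a high value with and without those libraries. Junb and Ier2 had r = 0.979 over all 9 libraries of PND540, 0.722 without replicate 5 and 0.72 without replicates 4 and 5, while at PND21 the same pair had r = -0.594. Egr1 and Egr2 had 0.735, 0.979 and 0.99 in that order, and -0.0917 at PND21. Fos and Egr1 had 0.784, 0.871 and 0.62, and 0.211 at PND21. Other pairs depended on the 2 libraries: Junb with Atf3 had 0.802 over all 9 and -0.68 without both, and Jun with Nr4a1 went from -0.178 to -0.858. At PND21 the highest values were those of Fosb with Atf3 (0.852) and with Jun (0.85), and the lowest was that of Ier2 with Nr4a1 (-0.693).

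For Fos, the first-named member, the relations with the other 9 genes at both ages were tested with exact permutations, two-sided, and adjusted over these 18 relations. None passed. The smallest p was that with Egr1 at PND540, where r was 0.784 (exact permutation p = 0.0197, adjusted p = 0.355) and Spearman's rho 0.433 (exact permutation p = 0.25, adjusted p = 0.8). Without the 2 libraries farthest from the median of Fos, CTR replicate 4 and GLLP replicate 1, that r was 0.396. Fos with Jun at PND540 came next, with r = 0.698 (exact permutation p = 0.0445, adjusted p = 0.4), a rho of 0.333 (exact permutation p = 0.385, adjusted p = 0.8) and r = 0.379 without those libraries. Both values were thus lower without those libraries, while without CTR replicates 4 and 5 the value of Fos with Egr1 was 0.62.

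Outside the 10 genes, 8 were named for having the pattern most like theirs, by Pearson's r with the mean log2 CPM of the members after each was centred on its group, over all 16 libraries and 9094 genes. They were Cd276 (r = 0.935), Sdc3 (0.931), Grik5 (0.929), Btg2 (0.927), Mpzl2 (0.912), Fabp5 (0.903), Tmem43 (0.901) and Slc8b1 (0.898), where the median over all of those genes was -0.038. Without CTR replicate 5 of PND540 these values were 0.846 to 0.926. Most of the likeness was seen at PND540 (0.912 to 0.965), while at PND21 r was 0.289 to 0.850. Btg2, an antiproliferative gene that is itself an early response gene, had the highest of these at PND21 (0.85). It stood at 48.2 to 71.2 CPM at PND21, and at PND540 at 146 and 264 CPM in CTR replicates 4 and 5 against 60.1 to 83.9 CPM in the other 7 libraries. A correlation of this kind describes these libraries and was not tested.

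A list of 44 further immediate-early and early response genes gave the setting for the 10. With edgeR, 0 of 43 tested passed for the diet at PND21 (27 positive and 16 negative, median log2 fold change 0.18, 7 with an unadjusted p under 0.05 where 19.3% of all genes had one) and 0 of 42 at PND540 (14 positive and 28 negative, median -0.20, 1 with an unadjusted p under 0.05 against 0.833% of all genes). The smallest p at PND21 was that of Gadd45g, a stress sensor, at 453 ± 109 CPM (SD, n = 4) in CTR and 261 ± 22.5 CPM (SD, n = 3) in GLLP (log2 fold change -0.79, SE 0.19, edgeR adjusted p = 0.0877). Next was Plk2, a polo-like kinase, at 15.8 ± 0.555 and 21.2 ± 2.60 CPM (edgeR adjusted p = 0.106). At PND540 they were Cyr61 (41.9 ± 42.4 and 13.4 ± 6.84 CPM) and Ier3 (65.7 ± 86.5 and 19.4 ± 13.1 CPM), both with an edgeR adjusted p of 0.914. The interaction called 0 of 43, with Hes1 (-0.97) and Ier3 (-2.17) having the smallest p (edgeR adjusted p = 0.738 for both).

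With age 12 of these 43 genes rose and 2 fell in CTR by edgeR (32.6%, all genes 30.5%), and 6 rose and 7 fell in GLLP (30.2%, all genes 36.2%). The share called was thus close to that of all genes, as for the 10 members. The Kruppel-like factor Klf6 rose 8.32-fold in CTR, from 12.6 ± 1.89 to 105 ± 24.1 CPM, and 9.61-fold in GLLP, from 11.4 ± 2.75 to 110.4 ± 27.3 CPM. Cebpb, a zipper factor, rose 5.53-fold in CTR, Gadd45b 6.76-fold and the cytokine signalling inhibitor Socs3 6.74-fold. Ptgs2, the inducible cyclooxygenase, fell from 2.00 ± 0.282 CPM to a mean of 0.0407 CPM in CTR, which is below the level of 3 counts. Dusp4, a MAP kinase phosphatase related to Dusp1, fell 8.47-fold in CTR and 6.66-fold in GLLP, from 170 ± 36.0 to 20.0 ± 10.5 CPM and from 174 ± 17.4 to 26.4 ± 6.41 CPM. The AP-1 genes Jund and Fosl2 rose 2.97-fold and 4.18-fold in GLLP, where the kinase gene Sgk1 fell 2.22-fold and the clock-linked repressor Bhlhe40 3.01-fold. Of the 14 genes called in CTR and the 13 called in GLLP, 7 were shared, 50% and 53.8% of each list. All 7 had the same direction in both diets. Klf6, Gadd45b, Socs3, Jund and Fosl2 were higher, and Ptgs2 and Dusp4 lower.

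Of 17 upstream kinases and factors, 0 of 16 passed for the diet at PND21 and 0 of 17 at PND540, and 0 of 16 for the interaction, by edgeR. An unadjusted p under 0.05 was found for 4, 0 and 0 of them, against 19.3%, 0.833% and 5.17% of all genes. At PND21 Map2k1, a kinase that activates MAP kinases, had a level of 169 ± 7.02 CPM in CTR against 142 ± 17.8 CPM in GLLP (edgeR adjusted p = 0.211). At PND540 the smallest p were those of Mapk3 (log2 fold change -0.82) and Elk1 (-0.33), both with an edgeR adjusted p of 0.914, and for the interaction those of Rps6ka3 (0.80) and Mapk8 (0.57), both at 0.738. With age 3 rose and 1 fell in CTR (25%, all genes 30.5%), and 6 rose and 1 fell in GLLP (43.8%, all genes 36.2%). Creb1, the CRE-binding factor, rose 7.57-fold in CTR and 11.4-fold in GLLP, from 3.49 ± 0.350 to 26.4 ± 11.7 CPM and from 2.80 ± 0.742 to 32.1 ± 5.13 CPM. The partner of serum response factor Elk3 fell 2.82-fold and 2.30-fold, and the stress kinase Mapk14 rose 1.40-fold and 1.37-fold. Mkl1, a coactivator of serum response factor, rose 1.49-fold in CTR and was also called higher in GLLP. In GLLP the MAP kinases Mapk3 and Mapk8, the latter of which acts on Jun, rose 1.69-fold and 2.55-fold.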

How the data were processed

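Values come from 2 tables of raw read counts per gene deposited by the authors, 1 for each age, which are whole numbers and not normalized. The submitters' processing notes name the tools STAR and edgeR 3.34.0, with no roles, and the build Rnor_6.0. Which program counted the reads, on which annotation and whether by strand is not given in the sources used here. Reads of a gene and of one overlapping it on the other strand can then not be told apart.

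The members and all gene lists were chosen with earlier results of these data known. Each comparison was fitted on its own libraries over all genes with edgeR 4.0.16 in R 4.3.3 (filterByExpr, TMM, robust quasi-likelihood fit and test, Benjamini-Hochberg adjustment, threshold 0.05). Age and interaction fits used the gene names in both tables. The printed CPM use TMM over the 16 libraries, and correlations use log2 CPM with a prior count of 2. Of each list the called genes with the smallest p were named, at most 6, or the 2 with the smallest p where none was called. Some genes that this rule or the marker lists name are not reported here. The genes named for likeness had at least 5 CPM on average in every group. Fits were tested on simulated data. Counts of replicates differed by more than sampling noise in every pair (lowest chi-square over its degrees of freedom 25.8). Alternatives were DESeq2 1.42.0, scaling by RLE or by library size alone, other filters, a non-robust fit, a replicate block, a joint fit, each library left out and, added after seeing the data, limma voom (limma 3.58.1) with sample weights and the PND540 co-variation without both CTR replicates 4 and 5. Promoters are from RefSeq (GRCr8), whose coordinates are not those of the counts. Figures used matplotlib 3.10.9.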

Additional observations from a re-analysis of the deposited data

Results flagged for a closer look

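The level of 1 library stood far from the rest of its group in 5 of 30 tests of a gene within a group of 4 or 5 libraries. About 1 in 20 would be flagged by chance if values were normally distributed, which CPM need not be. The share over all genes was not computed, so 5 of 30 is not read as an excess. All 5 are control libraries of PND540. Fos was at 40.0 CPM in CTR replicate 4, the next CTR library being at 11.7 CPM, and Egr1 at 38.8 CPM in the same library, the next being at 9.77 CPM. In CTR replicate 5 Junb was at 1598 CPM with the next at 322 CPM, Ier2 at 775 CPM with the next at 142 CPM, and Egr2 at 12.1 CPM with the next at 3.54 CPM. Genes measured in the same library are not independent of each other, so these are the values of 2 libraries. The groups of 3 libraries were not tested, and the causes of the high values were not tested.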

How the results depend on the processing

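No member was called for the diet at PND540 or for the interaction in any alternative run, and in GLLP the same 4 were called with age in every one. The DESeq2 runs gave no adjusted p for Junb and Ier2 for the diet at PND540, nor for Ier2 in the interaction. The diet count at PND21 was 1 in place of 0 with library size alone and with voom, and 0 to 1 when each library was left out. The age count in CTR ranged from 2 to 4 when each library was left out.

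Labels give replicate numbers, but they do not show that libraries of 1 number share an animal or a litter: deviations of same-numbered libraries correlated at -0.146 to 0.286. With the number as a replicate block the age count in CTR was 5, adding Ier2 and Dusp1 (without replicate 5, which has no partner), the calls over all genes at PND21 fell from 166 to 31, and some small values changed sign: Jun (0.033) and Atf3 (0.13) for the diet at PND540, Nr4a1 (0.0096) with age in GLLP, and Fos (0.0014) and Junb (0.066) for the interaction.

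Other log2 fold changes that changed sign were all uncalled in both fits. For the diet at PND21 these were Nr4a1 with library size alone (0.057) and Fosb (-0.017) and Atf3 (-0.52) with voom. For the diet at PND540 Jun was 0.0035 with RLE and with DESeq2, 0.0062 with library size alone, 0.0084 with no filter, 0.0022 in the joint fit and 0.17 with voom, which also gave 0.18 for Atf3 and 0.019 for Ier2. With age in GLLP, Ier2 (-0.072) and Dusp1 (-0.14) turned with library size alone, and Fos (-0.10), Egr2 (-0.24) and Dusp1 (-0.27) with voom. Voom turned Junb (0.052) and Atf3 (0.61) for the interaction. The cause was not tested.

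When each library was left out, the values that crossed 0 ranged as follows. At PND21 the diet effect ran from -0.15 to 0.66 for Fosb, -0.35 to 0.0085 for Jun, -0.52 to 0.33 for Egr2 and -0.18 to 0.62 for Atf3. At PND540 it ran from -0.72 to 0.41 for Fos, -0.13 to 0.29 for Jun, -1.25 to 0.032 for Egr1 and -0.45 to 0.11 for Atf3. The age effect ran from -0.33 to 0.67 for Fos in CTR, and from -0.15 to 0.10 for Nr4a1 and -0.16 to 0.23 for Dusp1 in GLLP. The interaction ran from -0.46 to 0.71 for Fos and -1.32 to 0.033 for Junb.

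The median co-variation at PND540 was 0.42 to 0.67 when each library was left out and 0.13 without CTR replicates 4 and 5. At PND21 it ran from -0.00027 to 0.30.

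Calls over all genes, the background of the member counts, depended on the setting more than the members did. For the diet at PND21 they numbered 650 with library size alone, 972 with DESeq2, 3455 with voom, 40 in the joint fit, 1509 without GLLP replicate 2 and 62 to 147 without any other library. With age in CTR they numbered 6574 without CTR replicate 5 and 7384 with voom, against 4117. For the interaction DESeq2 called 46 and voom 35, against 13, and leaving out a library gave 7 to 16. DESeq2 called 2 genes for the diet at PND540. A filter at 1 CPM left 9 members tested for both diet effects and for age in CTR. Egr2 at PND21 rests on 11 to 36 counts a library.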
